A study of Macaca mulatta with 51 samples.

Results

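Lipoprotein lipase (LPL), the proteins that hold or inhibit it, and the proteins that bring fatty acids into cells were followed in subcutaneous adipose tissue (AT) and gastrocnemius skeletal muscle (SM) of diet-induced obese (DIO) rhesus macaques treated with fibroblast growth factor 21 (FGF21). The genes were taken by symbol alone: LPL, GPIHBP1, LMF1, ANGPTL4, ANGPTL8, VLDLR, CD36 and FABP4. Of these 8 symbols, 7 had a row among the 16033 genes of the count table, and LMF1, a factor that LPL needs to mature in the endoplasmic reticulum, was not analysed here. The Ensembl identifiers given with the counts are those of the human homologs: ENSG00000175445 for LPL, ENSG00000277494 for GPIHBP1, ENSG00000167772 for ANGPTL4, ENSG00000130173 for ANGPTL8, ENSG00000147852 for VLDLR, ENSG00000135218 for CD36 and ENSG00000170323 for FABP4.

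All animals were obese, non-diabetic macaques aged 11 to 22 years, males and ovariectomized females, kept on a diet rich in fat and sucrose. They were injected subcutaneously every day with native human FGF21 at a rising dose for 12 weeks, and 1 animal was held at a lower dose than the others. Punch biopsies of abdominal subcutaneous AT and of gastrocnemius SM were taken before treatment (pre-treatment), after the 12 weeks (post-treatment) and 16 weeks after the last treatment (washout). No untreated animals were sampled at these times, so the pre-treatment biopsies of the same animals are the controls, and effects of FGF21, of any change in body weight and of elapsed time cannot be told apart. In order of time, AT had 10, 9 and 8 libraries from 10 animals and SM had 6, 8 and 7 libraries from 8 of them.

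LPL is the enzyme that splits triglycerides of circulating lipoproteins at the wall of capillaries, and GPIHBP1 carries it there across the endothelial cells and holds it in place. ANGPTL4 and ANGPTL8 are secreted proteins of the angiopoietin-like family that restrain LPL, ANGPTL4 acting within the tissue that makes it. VLDLR binds triglyceride-rich lipoproteins, CD36 takes up the fatty acids set free, and FABP4 binds fatty acids inside adipocytes and, to a lesser extent, macrophages and endothelial cells.

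Total counts per library ranged from 14455195 to 23940980. In AT each member had at least 452 counts in every library except ANGPTL8, with as few as 14, while in SM ANGPTL4 had as few as 3 and ANGPTL8 0. Values are CPM, counts scaled to a common library total, after TMM normalization within a tissue. They compare libraries and not genes, because transcript length was not taken into account. A change was called where the adjusted p of edgeR's quasi-likelihood test, with animal in the model, was under 0.05 and the log2 fold change was beyond 0.26 in either direction. The defining markers matched the tissue labels. The 9 muscle fibre markers summed to between 53910 and 272416 CPM in SM and to between 78.7 and 528 CPM in AT, and the 4 adipocyte markers in the table (ADIPOQ, PLIN1, LEP and TUSC5) to between 2394 and 12490 CPM in AT. The 8 SM post-treatment libraries differed widely among themselves in these sums. Those of animals 21189, 21866, 24849 and 20275 had muscle fibre sums of 53910 to 126045 CPM and stromal sums of 6174 to 26665 CPM, with animal 21189 at the extreme of both, and the other 4 had muscle fibre sums of 242124 to 272416 CPM and stromal sums of 301 to 688 CPM.

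LPL was the 1 member called in AT by the end of treatment, and it was lower than before. Members were not tested against each other. LPL was measured at 6252 to 19528 CPM pre-treatment, with a median of 10426 (n = 10). Post-treatment it lay between 4374 and 10422 CPM with a median of 6089 (n = 9), and at washout between 4348 and 16436 CPM with a median of 8373 (n = 8). The groups overlapped, because the animals with the lowest pre-treatment values lay within the post-treatment range. Within animals LPL was lower post-treatment in 8 of 9. The exception was animal 20456, at 7148 CPM pre-treatment and 7901 CPM post-treatment, and the widest difference was in animal 22130, from 19528 to 4934 CPM. The log2 fold change was -0.71 (SE 0.22, 95% interval -1.17 to -0.24, edgeR adjusted p = 0.0375), or 0.612 of the pre-treatment level. LPL was thereby the 1 member called of 7 tested. That share is near the 15.5% called of the 13367 genes tested in AT.

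The LPL call depended on single animals. It was lost in 6 of 10 fits that left out 1 animal each, namely 20275, 21189, 21866, 22130, 24849 and 26292, with log2 fold changes between -0.81 and -0.57 over the 10 fits and adjusted p up to 0.105. Animal 19832 had a pre-treatment AT library alone, so with animal in the model the fit without it was no real check. The LPL call was also lost without the pre-treatment library of animal 20275 (log2 fold change -0.65, edgeR adjusted p = 0.0776).

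**Figure D1:**
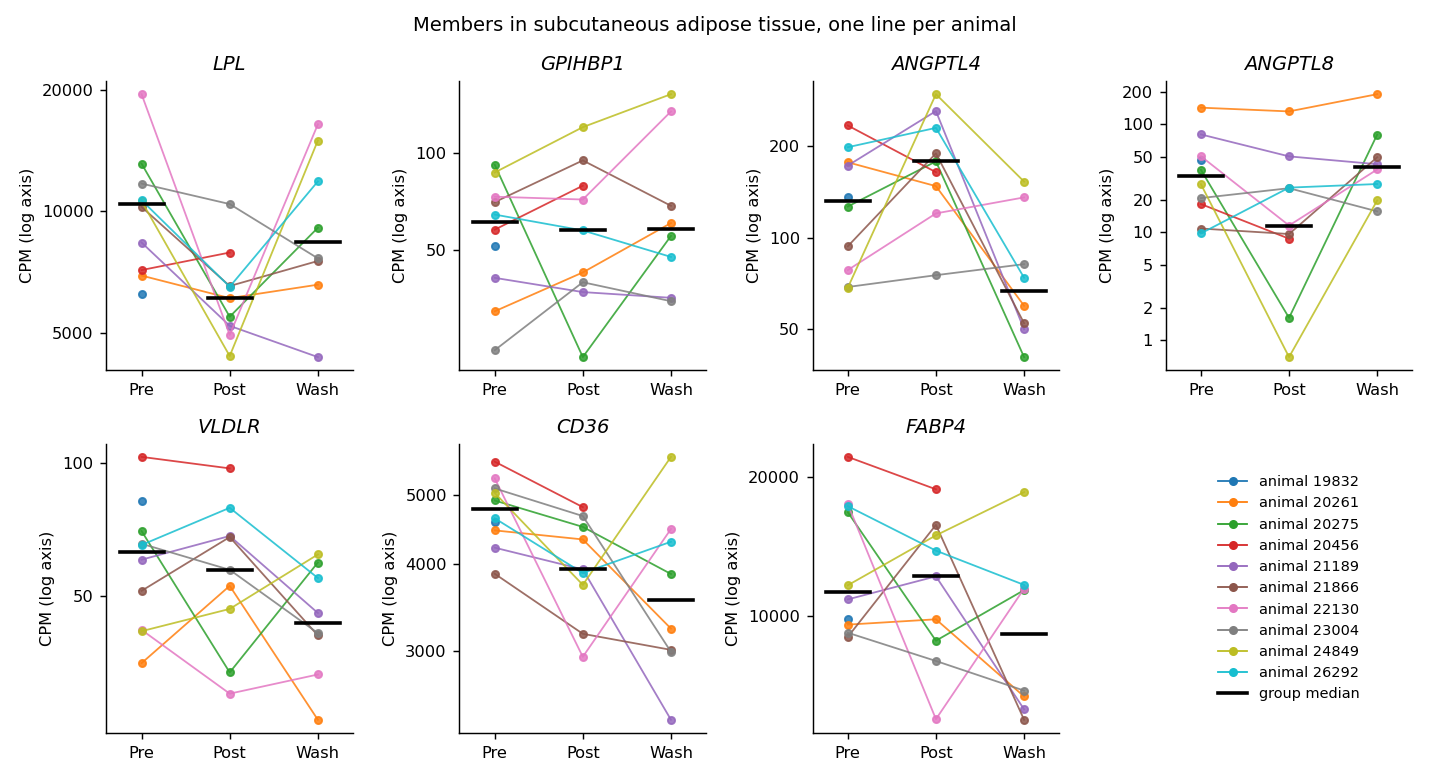
Normalised CPM (vertical log axes) of the 7 measured members in AT at pre-treatment, post-treatment and washout (horizontal axes), with points joined within an animal and black bars at the group medians. LPL was lower post-treatment than pre-treatment in 8 of 9 animals, and ANGPTL8 lay below 2 CPM post-treatment in animals 20275 and 24849.

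GPIHBP1, the endothelial anchor of LPL, showed no common direction. It was measured at 24.4 to 92.2 CPM pre-treatment (median 61.2), at 23.3 to 121 CPM post-treatment (median 57.6) and at 34.7 to 153 CPM at washout (median 58.0). The ranges covered each other almost entirely, with 5 of 9 animals higher and 4 lower post-treatment. Animal 20275 stood out with 92.2 CPM pre-treatment and 23.3 CPM post-treatment. The log2 fold change post-treatment was 0.02 (SE 0.21, 95% interval -0.42 to 0.47, edgeR adjusted p = 0.953), and its sign turned in some fits without 1 animal.

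The inhibitors ANGPTL4 and ANGPTL8 pointed in opposite directions post-treatment, and neither passed the test. ANGPTL4 lay between 68.6 and 234 CPM pre-treatment (median 132), between 75.4 and 297 CPM post-treatment (median 179) and between 40.6 and 153 CPM at washout (median 66.9). Its values were higher post-treatment in 7 of 9 animals, most of all in animal 24849 (68.6 to 297 CPM), but the groups overlapped and the log2 fold change was 0.45 (SE 0.30, edgeR adjusted p = 0.297). ANGPTL8 lay between 9.75 and 143 CPM pre-treatment (median 32.9), between 0.696 and 132 CPM post-treatment (median 11.5) and between 15.6 and 191 CPM at washout (median 40.5). It varied most between animals of the 7 members: animal 20261 was highest at every time point, while in animals 24849 and 20275 ANGPTL8 went from 27.9 and 37.9 CPM pre-treatment to 0.696 CPM (14 counts) and 1.61 CPM (32 counts) post-treatment, and back to 19.7 and 80.5 CPM at washout. ANGPTL8 was lower post-treatment in 7 of 9 animals, with a log2 fold change of -0.90 (SE 0.54, 95% interval -2.03 to 0.22, edgeR adjusted p = 0.241).

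The receptor VLDLR and the fatty acid genes CD36 and FABP4 were not called post-treatment. VLDLR lay between 35.3 and 103 CPM pre-treatment (median 62.8), between 30.1 and 97.1 CPM post-treatment (median 57.3) and between 26.3 and 62.1 CPM at washout (median 43.5). The post-treatment log2 fold change of VLDLR had a 95% interval of -0.32 to 0.32, with 5 animals higher and 4 lower. CD36 lay between 3869 and 5586 CPM pre-treatment (median 4779), between 2948 and 4813 CPM post-treatment (median 3925) and between 2399 and 5673 CPM at washout (median 3550). It was lower post-treatment in 9 of 9 animals, by 0.04 to 0.84 on the log2 scale, but the groups overlapped and the log2 fold change of -0.26 (SE 0.14, 95% interval -0.54 to 0.03) was not called (edgeR adjusted p = 0.186). FABP4 lay between 9027 and 22105 CPM pre-treatment (median 11275), between 5996 and 18812 CPM post-treatment (median 12199) and between 5978 and 18547 CPM at washout (median 9152). Post-treatment FABP4 was higher in 4 animals and lower in 5 (log2 fold change -0.17, SE 0.21, 95% interval -0.62 to 0.27, edgeR adjusted p = 0.599). Its log2 changes within animals ran from -1.54 in animal 22130 to 0.80 in animal 21866.

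**Figure D2:**
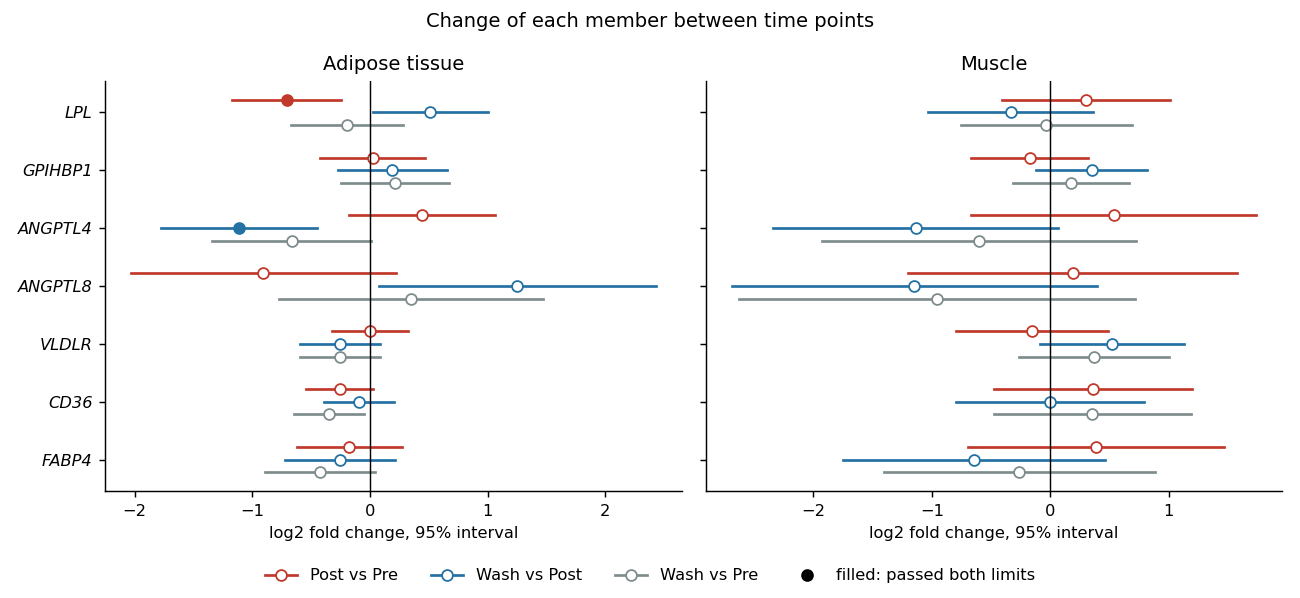
Log2 fold change of each member between time points (horizontal axes) in AT and SM, with 95% intervals as lines and filled points where a change was called. LPL at post-treatment against pre-treatment and ANGPTL4 at washout against post-treatment, both in AT, are the filled points.

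After treatment stopped, ANGPTL4 was the 1 member called in AT, and it was lower at washout. The washout values given above reached down to 40.6 CPM in animal 20275, against 179 CPM in that animal post-treatment, and ANGPTL4 was lower at washout in 6 of 8 animals. Animals 22130 and 23004 were slightly higher, at 136 against 120 CPM and at 82.0 against 75.4 CPM, and the groups overlapped. The log2 fold change was -1.11 (SE 0.32, 95% interval -1.77 to -0.45, edgeR adjusted p = 0.0105), or 0.463 of the post-treatment level. ANGPTL4 was the 1 member called of 7, a share below the 35.4% of all genes tested that were called. It was called in all 10 fits that left out 1 animal (edgeR adjusted p from 0.0046 to 0.0402). The fit without animal 19832, which had no AT library at these times, is among the 10 and was no real check.

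LPL and ANGPTL8 were each higher at washout than post-treatment in 6 of 8 animals, and neither was called. For LPL the log2 fold change was 0.51 (SE 0.23, edgeR adjusted p = 0.0914). It was called with DESeq2 (0.53, adjusted p = 0.0375), with library size alone as the scaling (0.59, edgeR adjusted p = 0.0427) and without animal 23004 (0.66, edgeR adjusted p = 0.0448). For ANGPTL8 the log2 fold change was 1.25 (SE 0.56, edgeR adjusted p = 0.0862), and leaving out animal 23004 gave 1.56 (edgeR adjusted p = 0.0472). The remaining members had log2 fold changes of 0.19 for GPIHBP1, -0.09 for CD36, -0.25 for FABP4 and -0.26 for VLDLR, with edgeR adjusted p between 0.226 and 0.653. VLDLR was called by limma with sample weights (-0.45, adjusted p = 0.0092) and without animal 20275 (-0.38, edgeR adjusted p just under the limit).

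Washout values were then set against pre-treatment, to see whether the members stood where they had started. Of the 7 members 0 were called by edgeR, where 20.5% of genes tested were called. An unadjusted p under 0.05 was found for 4549 of the 13367 genes and for 1 member. DESeq2 called 1 member and 3007 genes, and limma 3 members and 3726 genes. The member at an unadjusted p under 0.05 was CD36, the fatty acid transporter, which was lower at washout in 7 of 8 animals (log2 fold change -0.35, SE 0.14, edgeR adjusted p = 0.0912). CD36 was called by limma with sample weights (-0.40, adjusted p = 0.0121), by DESeq2 (-0.34, adjusted p = 0.0356), with the number series of the library identifiers, described next, in the model (-0.47, edgeR adjusted p = 0.0099) and without animal 24849 (-0.43, edgeR adjusted p = 0.0387). FABP4 and VLDLR were also lower in 7 of 8 animals (log2 fold changes -0.42 and -0.25), and animal 24849 was the exception for CD36, FABP4 and VLDLR alike. LPL had a log2 fold change of -0.19 with a 95% interval of -0.67 to 0.28, ANGPTL4 of -0.67 (edgeR adjusted p = 0.153), ANGPTL8 of 0.35 and GPIHBP1 of 0.21. Limma also called FABP4 and ANGPTL4 in this comparison (-0.46 and -0.80, adjusted p = 0.0356 and 0.0397). The 3 comparisons share libraries, so their values are given side by side and were not related to each other.

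Library identifiers came in 3 number series, and since no label gives a batch, each series was examined as a possible batch. Within the series that holds both libraries of 6 animals, LPL was lower post-treatment in 6 of 6, with a mean log2 change of -0.80, ANGPTL4 higher in 5 of 6 (mean 0.69), ANGPTL8 lower in 5 of 6 (mean -1.53) and CD36 lower in 6 of 6 (mean -0.21). In the other series with complete pairs, of 2 animals, the mean change of LPL was -0.01, with 1 animal higher and 1 lower. For washout against post-treatment a series held both libraries of 3 animals. In these ANGPTL4 was lower in 3 of 3 (mean log2 change -1.85), while LPL had a mean change of 0.02. With the series as a term in the model, the log2 fold change of LPL post-treatment was -0.67 (edgeR adjusted p = 0.0215) and that of ANGPTL4 at washout against post-treatment was -0.97 (edgeR adjusted p = 0.0458). In SM a series held both libraries of at most 2 animals, too few for a value within it.

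Markers of other cell types moved in the same AT libraries. In a bulk biopsy, fewer cells of a type and less RNA per cell cannot be told apart. Post-treatment, 3 of 4 adipocyte markers fell (LEP, PLIN1 and TUSC5, not ADIPOQ), 3 of 9 macrophage markers rose (C1QA, C1QB and C1QC), 2 of 8 stromal markers rose (COL1A1 and COL1A2), 1 of 4 tested erythroid markers fell (SLC4A1), and 0 of 9 endothelial and 0 of 9 muscle fibre markers were called by edgeR, with 1 endothelial and 0 muscle fibre markers at an unadjusted p under 0.05. DESeq2 called 0 of both, and limma 1 endothelial and 0 muscle fibre markers. Of all 13367 genes tested, 15.5% were called by edgeR post-treatment and 4581 had an unadjusted p under 0.05. Of the macrophage markers DESeq2 called 5 and limma 0. The adipocyte sum ranged from 6693 to 12490 CPM pre-treatment, from 2394 to 9878 CPM post-treatment and from 4180 to 12116 CPM at washout. The macrophage sum ranged from 646 to 2356 CPM, from 943 to 5401 CPM and from 390 to 2113 CPM at these times. At washout against post-treatment 9 of 9 macrophage markers and 3 of 8 stromal markers fell, while 2 of 4 adipocyte, 4 of 9 endothelial, 3 of 4 erythroid markers and 1 of 9 muscle fibre markers (DES) rose, where 35.4% of all genes tested were called. Of the muscle fibre markers 7 of 9 had a log2 fold change below 0 there, without a call. Limma called 0 of 4 erythroid markers and 4 stromal markers there, and DESeq2 3 and 5. At washout against pre-treatment 6 of 9 macrophage markers and 1 of 8 stromal markers fell. There 4 of 9 endothelial and 1 of 9 muscle fibre markers rose (7 of 9 muscle fibre markers were lower without a call), where 20.5% of all genes tested were called. Of the adipocyte and erythroid markers 0 were called by edgeR. DESeq2 called 6 macrophage and 4 endothelial markers in that comparison, and limma 9 and 4. The endothelial sum ranged from 920 to 1790 CPM pre-treatment, from 845 to 2023 CPM post-treatment and from 1003 to 2788 CPM at washout, and the stromal sum from 16857 to 37875 CPM, from 21809 to 55309 CPM and from 13664 to 45844 CPM. The erythroid sum ranged from 327 to 10554 CPM, from 454 to 7644 CPM and from 457 to 11989 CPM, and 2 of 6 erythroid markers had no count in any AT library. The part of these cell types in the values of LPL and ANGPTL4 was not tested.

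Other genes of the pathway, 49 of 53 listed in the table and 46 tested in AT, gave the setting. Post-treatment 16 of the 46 were called (34.8%, against 15.5% of all genes tested), with 4 up and 12 down. Their median log2 fold change was -0.16, against 0.03 over all genes tested. The lists were chosen with earlier results of these data known, so these shares cannot show an excess over all genes. DESeq2 called 22 of the 46, where it called 2607 of all 13367 genes tested, and limma called 10, where it called 1837. Without the pre-treatment library of animal 20275 edgeR called 9, where it called 1162 of 13356 genes. At washout against post-treatment 16 were called (34.8%, near the 35.4% of all genes), 9 up and 7 down, with a median of -0.01. At washout against pre-treatment 5 were called by edgeR (10.9%, below the 20.5% of all genes). DESeq2 called 8, where it called 3007 of all 13367 genes, and limma called 12, where it called 3726. In SM 0 of 44 were called by edgeR, DESeq2 or limma in any comparison, with 1, 8 and 7 at an unadjusted p under 0.05 in the same order of comparisons. Over all 12617 genes tested in SM, 410, 2181 and 1691 had an unadjusted p under 0.05.

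Of the lipoprotein receptor genes, SCARB1, which takes up cholesteryl ester from HDL, fell by 0.61 post-treatment (SE 0.15, edgeR adjusted p = 0.014) and rose by 0.53 at washout relative to post-treatment (SE 0.16, edgeR adjusted p = 0.0119). SORT1, named after its value was seen, fell by 0.61 post-treatment (SE 0.20, edgeR adjusted p = 0.0432). VLDLR, the receptor among the members, had an interval around 0 post-treatment.

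Of 13 genes for fatty acid uptake and binding, 4 fell and 1 rose post-treatment, while DESeq2 called 4 down and 3 up and limma 3 down and 0 up. FFAR4, a cell surface receptor for long-chain fatty acids, fell by 1.53 (SE 0.23, edgeR adjusted p = 0.0011), and the caveolar genes CAV2 and PTRF fell by 0.79 and 0.48. The remaining calls, named after their values were seen, were CAV1 (-0.43) and the transporter SLC27A1, which rose by 0.45. At washout against post-treatment FFAR4 (1.12) and CAV2 rose, and FABP3 and FABP5, the heart and epidermal relatives of FABP4, fell by 1.03 and 0.91. FABP4 itself was not called in either comparison. Of 6 genes that form acyl-CoA or bind it, ACSL6 (-1.17), DBI (-0.61) and ACSL1 (-0.54) fell post-treatment, and at washout ACSL6 rose by 1.32 while ACSL4 and ACSL5 fell by 0.78 and 0.70.

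Transcription factors and LPL partners were less uniform. PPARG, the adipocyte regulator of which LPL, CD36, FABP4 and ANGPTL4 are textbook targets, fell by 0.70 post-treatment (SE 0.16, edgeR adjusted p = 0.0111) and rose by 0.49 at washout. NR1H3, which encodes the oxysterol receptor LXR alpha, rose by 1.19 and then fell by 1.02, and MLXIPL, the carbohydrate response factor ChREBP, rose by 1.41 at washout. Among 10 tested genes for LPL maturation, regulation and apolipoproteins, SDC1, a heparan sulphate proteoglycan, rose by 0.97 post-treatment and fell by 1.21 at washout. SEL1L, which takes part in LPL leaving the endoplasmic reticulum, fell by 0.41 at washout. LIPC, named after its value was seen, rose by 0.84 post-treatment. It was barely detected, with means of 0.54 CPM pre-treatment and 0.95 CPM post-treatment and a pre-treatment library at 0.15 CPM.

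**Figure D3:**
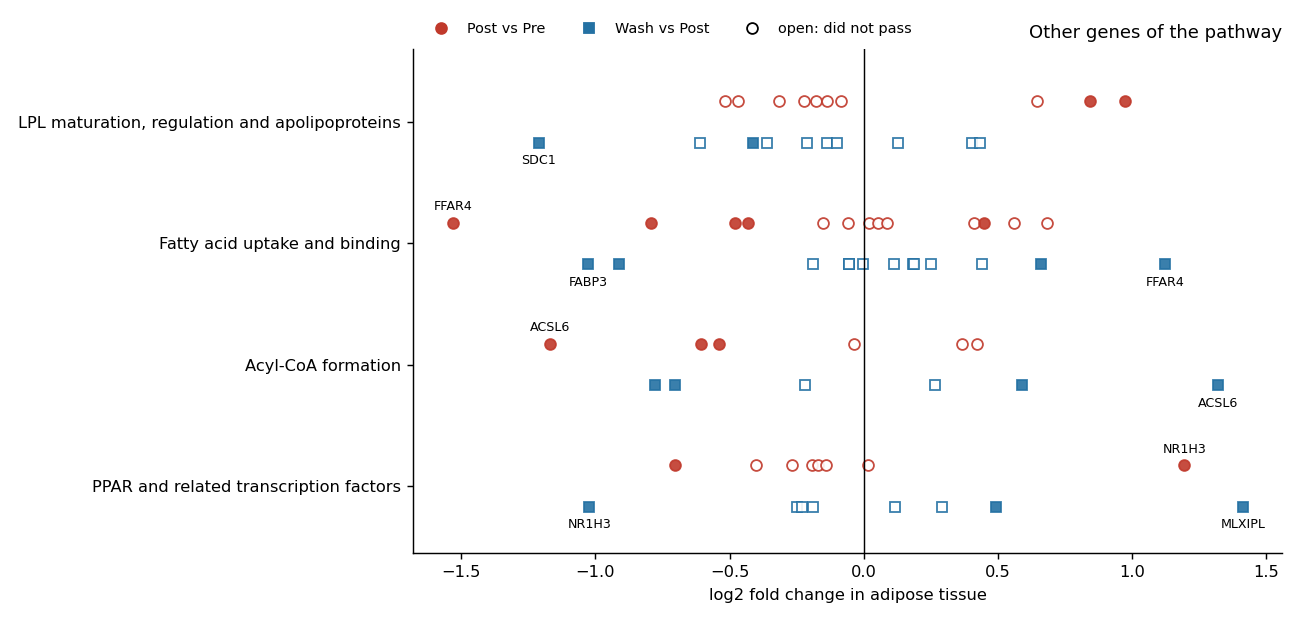
Log2 fold changes in AT (horizontal axis) of genes in 4 lists (vertical axis), with circles for post-treatment against pre-treatment, squares for washout against post-treatment and filled symbols for called changes. FFAR4 stands at -1.53 and 1.12, and NR1H3 at 1.19 and -1.02.

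Animals differed in how far LPL went down, and the changes of the other members in the same animals were set beside it. Over the 9 animals with both libraries and 21 pairs of members, 0 pairs passed Benjamini-Hochberg adjustment by Pearson's r (smallest adjusted p = 0.252, exact permutation test, two-sided) or by Spearman's rho (0.509). The changes of LPL and CD36 had r = 0.76 (exact permutation p = 0.0168) and rho = 0.52 (exact permutation p = 0.162). With the most extreme 2 animals by LPL change left out, r was 0.58, and within 6 animals of the same number series it was 0.56 (exact permutation p = 0.239). LPL and ANGPTL4 had r = -0.61 (exact permutation p = 0.0788) and rho = -0.73 (exact permutation p = 0.0311), with r = -0.71 without 2 animals and -0.70 within the series. LPL and ANGPTL8 had r = 0.58 (exact permutation p = 0.105) and rho = 0.53 (exact permutation p = 0.148). Their r was 0.82 without 2 animals and 0.82 within the series (exact permutation p = 0.0375). Both subsets kept animals 24849 and 20275, with ANGPTL8 changes of -5.13 and -4.47. Within the series GPIHBP1 and FABP4 had r = 0.87 (exact permutation p = 0.0222). There ANGPTL4 and CD36 had r = -0.86 (exact permutation p = 0.0306). The p within the series were not adjusted. VLDLR and FABP4 had r = 0.74 (exact permutation p = 0.024) and rho = 0.65 (exact permutation p = 0.0666), with r = 0.46 without the 2 animals most extreme by VLDLR change and 0.76 within the series.

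**Figure D4:**
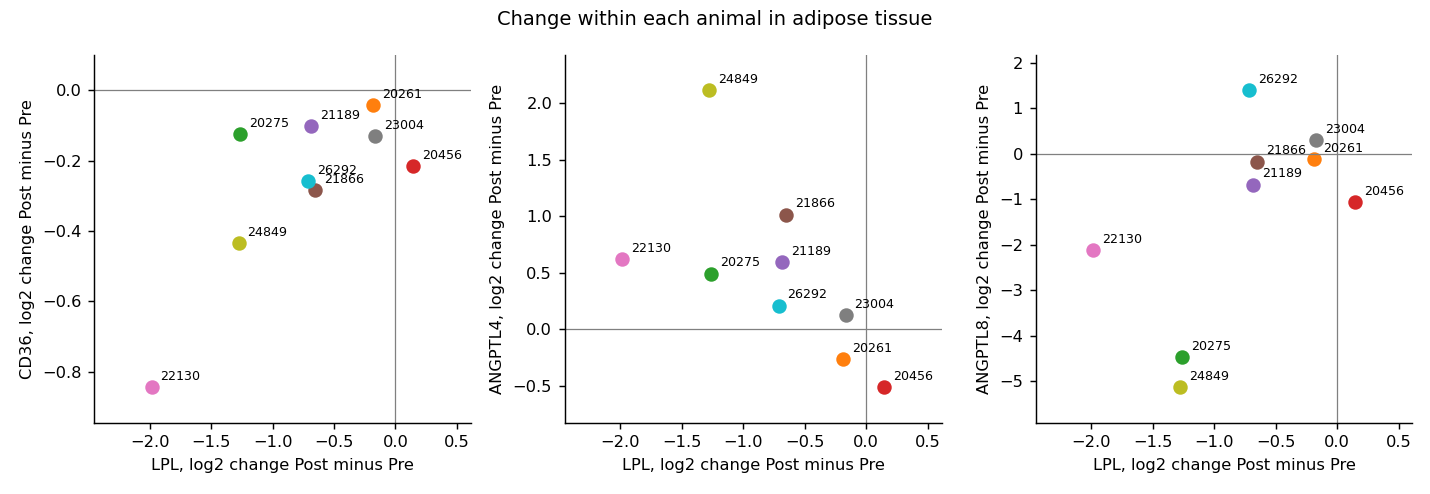
Log2 change of CD36, ANGPTL4 and ANGPTL8 (vertical axes) against that of LPL (horizontal axes) from pre-treatment to post-treatment in AT, 1 point per animal. The ANGPTL8 changes of animals 24849 and 20275 lie below -4, apart from the other 7 animals.

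The genes whose AT levels ran most like those of a member were found by Pearson's r of log2 CPM over 27 libraries after each animal's mean was subtracted, among 12139 genes. These r are descriptions over libraries that share animals, time points and cell composition. LPL ran most like MMD (r = 0.96), DLAT (0.94), a subunit of pyruvate dehydrogenase, and PTGR2 (0.94). ANGPTL4 ran most like PCK1 (0.92), a gluconeogenic enzyme that takes part in making glycerol phosphate in adipocytes, FJX1 (0.91) and TMEM187 (0.87). GPIHBP1 ran most like S1PR1 (0.83), a receptor of endothelial cells, ABO (0.81) and MGAT5B (0.81). CD36 ran most like MRPL3 (0.93), SEC22B (0.90) and SLC39A6 (0.89), and ANGPTL8 most like COQ3 (0.88), TMEM178A (0.86) and PMEPA1 (0.85).

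Before treatment AT and SM differed in every member measured. On a scale normalised over both tissues, LPL had a median of 8103 CPM in AT and 92.8 CPM in SM, CD36 of 3751 and 63.9 CPM, FABP4 of 8714 and 88.3 CPM, ANGPTL4 of 102 and 2.24 CPM, ANGPTL8 of 25.6 and 0.575 CPM, and GPIHBP1 of 48.6 and 14.4 CPM. VLDLR was higher in SM, with 111 CPM against 49.0 CPM in AT. The ranges of AT and SM did not overlap for LPL, CD36, FABP4, ANGPTL4 and ANGPTL8, and they overlapped for GPIHBP1 and VLDLR. The log2 differences, AT minus SM, were 5.85 (SE 0.45) for LPL, 6.44 (SE 0.53) for FABP4, 5.54 (SE 0.37) for CD36, 5.38 (SE 0.51) for ANGPTL4, 5.63 (SE 0.79) for ANGPTL8, 1.72 (SE 0.30) for GPIHBP1 and -1.23 (SE 0.24) for VLDLR. All 7 members were called (edgeR adjusted p from 7.71e-16 to 2.7e-05), as were 77.7% of 13463 genes tested, so that a call between tissues was the rule. With library size alone as the scaling the median over all genes moved from 0.16 to 0.90 and VLDLR stood at -0.47 (edgeR adjusted p = 0.0322). Relative to the median of all genes VLDLR was at -1.39 and -1.38 under these scalings.

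In SM the members showed no change that passed the test between any time points, while single animals stood far apart. LPL lay between 49.6 and 287 CPM pre-treatment (median 67.8, n = 6), between 47.5 and 435 CPM post-treatment (median 90.9, n = 8) and between 31.8 and 358 CPM at washout (median 95.8, n = 7). Animal 24849 had the highest LPL pre-treatment and post-treatment, and animal 20456, which had no pre-treatment SM counts, the highest at washout. The post-treatment log2 fold change of LPL was 0.30 (SE 0.33, 95% interval -0.41 to 1.01, edgeR adjusted p = 0.9996), with 3 animals higher and 3 lower.

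FABP4 in SM lay between 33.1 and 71.4 CPM in 5 of 6 pre-treatment libraries and at 481 CPM in animal 24849. Post-treatment it lay between 39.7 and 152 CPM in 7 of 8 libraries and at 826 CPM in animal 24849, and that animal was at 43.2 CPM at washout. CD36 in animal 24849 was likewise 204, 215 and 53.6 CPM at these time points, against medians of 47.1, 58.8 and 78.1 CPM. The summed adipocyte markers moved with these values: they were 311 and 391 CPM in the pre-treatment and post-treatment SM libraries of animal 24849 and 15.5 CPM in its washout library, and the group medians lay between 15.5 and 27.3 CPM, with 0 of the 4 markers at 0 in every library of a group. The highest adipocyte sum at washout, 103 CPM, was in animal 20456, which then had the highest LPL, CD36 and FABP4. The part of adipocyte RNA in the SM values of LPL, CD36 and FABP4 was not tested.

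VLDLR in SM lay between 58.3 and 90.5 CPM pre-treatment (median 81.3), between 20.1 and 138 CPM post-treatment (median 73.4) and between 50.4 and 148 CPM at washout (median 105). The lowest of these values was the post-treatment library of animal 21189, which had the lowest muscle fibre sum. VLDLR was higher at washout than post-treatment in 5 of 7 animals, with a log2 fold change of 0.52 (SE 0.28, edgeR adjusted p = 0.363), and it was called with the library number series in the model (1.14, edgeR adjusted p = 0.0243). Without animal 21189 the log2 fold change of VLDLR was 0.13 post-treatment against pre-treatment, in place of -0.15 (SE 0.30), and 0.30 at washout against post-treatment, neither called. GPIHBP1 lay between 2.70 and 18.3 CPM over all SM libraries, with log2 fold changes between -0.17 and 0.35.

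ANGPTL8 was near the limit of detection in SM. ANGPTL4 was low there, with medians of 1.67 CPM pre-treatment, 1.98 CPM post-treatment and 1.24 CPM at washout. ANGPTL4 ranged from 0.207 CPM (3 counts) to 8.53 CPM, the highest again in animal 24849 post-treatment. ANGPTL8 ranged from 0 to 1.87 CPM. The post-treatment library of animal 19832 had 0 counts of ANGPTL8, which allows a level of up to 0.226 CPM, taking 3 counts of that library as the limit and counting error alone. At this depth, changes of ANGPTL8 in SM were not detectable unless large. Post-treatment 0 of 7 members were called in SM, where 0% of the 12617 genes tested were called; 0 had an unadjusted p under 0.05, and DESeq2 and limma also called 0. At washout against post-treatment 0 of 7 were called by edgeR, with 0 under an unadjusted p of 0.05 and 0 called by DESeq2 and limma, where 0.19% of genes were called. At washout against pre-treatment these counts were 0, 0 and 0, where 0.0634% of genes were called.

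**Figure D5:**
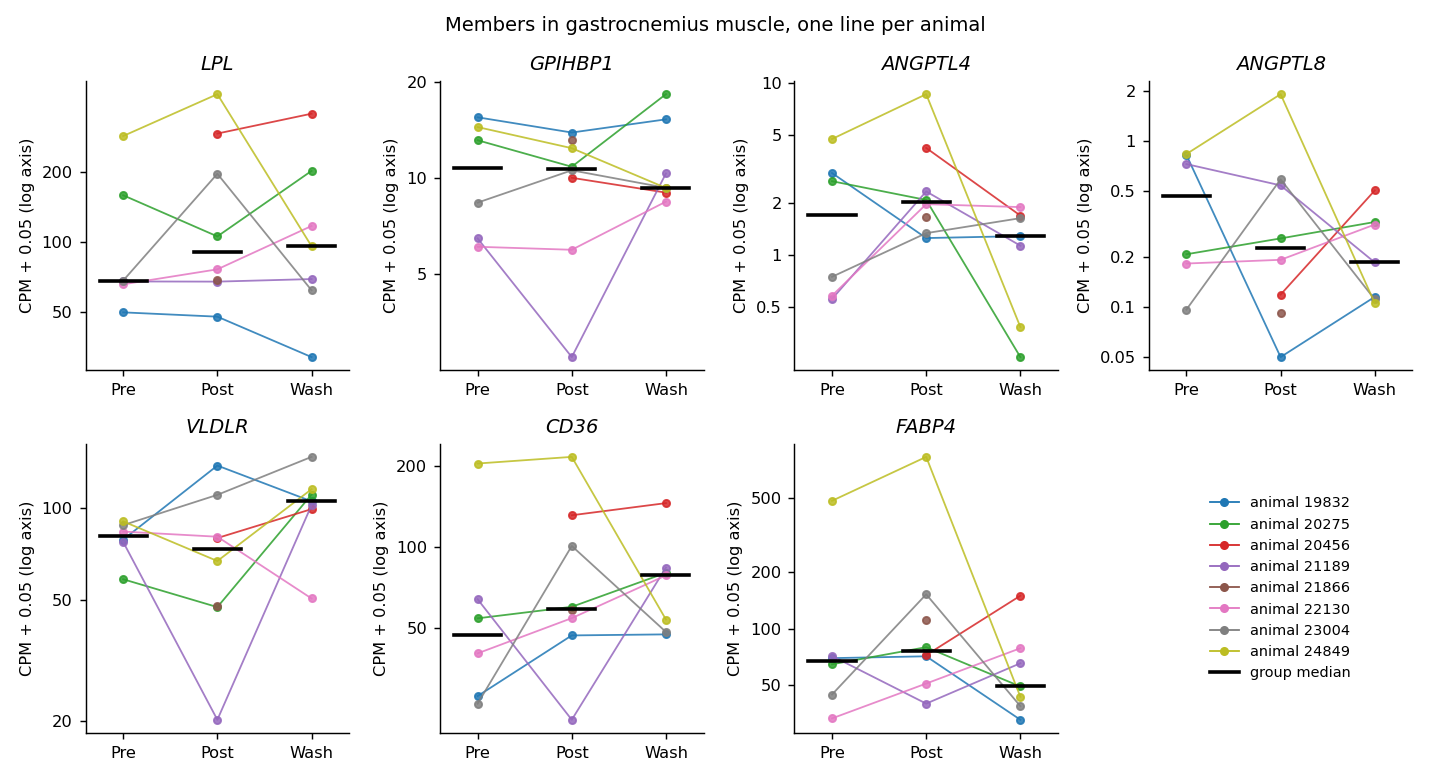
Normalised CPM plus 0.05 (vertical log axes) of the 7 measured members in SM at the 3 time points (horizontal axes), with points joined within an animal and black bars at the group medians. FABP4 of animal 24849 stands at 481 and 826 CPM at the first time points and at 43.2 CPM at washout.

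Whether the change of a member differed between AT and SM was tested as an interaction over 12322 genes. For post-treatment against pre-treatment 0 of 7 members were called by edgeR and 0 by DESeq2, where edgeR called 0.0487% of genes. An unadjusted p under 0.05 was found for 1306 of the 12322 genes and for 1 member. That member was LPL, with a change 1.05 lower in AT than in SM on the log2 scale (log2 difference -1.05, SE 0.40, edgeR adjusted p = 0.333). For washout against post-treatment 0 were called by edgeR or DESeq2, where edgeR called 22.7% of genes. An unadjusted p under 0.05 was found for 4293 of the 12322 genes and for 3 of 7 members. The 3 members were VLDLR (log2 difference -0.79, edgeR adjusted p = 0.087), ANGPTL8 (2.30, edgeR adjusted p = 0.128) and LPL (0.84, edgeR adjusted p = 0.139). For washout against pre-treatment 0 were called by edgeR or DESeq2, where edgeR called 17.5% of genes. An unadjusted p under 0.05 was found for 3702 of the 12322 genes and for 0 members. VLDLR was called with the number series in the model for both washout comparisons (-1.50 and -1.28), and CD36 for the later one (-1.28). VLDLR was also called for washout against post-treatment without animal 19832 (-0.98) or 22130 (-1.03), and CD36 for washout against pre-treatment without animal 24849 (-1.16). The fall of LPL in AT was not shown to differ from its change in SM.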

How the data were processed

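RNA-seq of AT and SM biopsies was analysed from the table of read counts per gene that the authors deposited, without normalization, after alignment with STAR to the MacaM macaque genome; the counting tool is not given in the sources used here. The library kit kept strand. Of 51 labelled samples, 48 had counts. Dropping 70 repeat entries left 16033 genes, and genes with at least 0.5 CPM in 10% of a tissue's libraries were tested. edgeR 4.0.16 in R 4.3.3 gave TMM values and robust quasi-likelihood tests (time point and animal, 1 fit per tissue, Benjamini-Hochberg adjustment). In simulated data with 200 genes raised by 1.5 on the log2 scale post-treatment, 196 were recovered in AT and 175 in SM. There 5 and 7 unchanged genes were called. The simulated rise was larger than the called changes of LPL and ANGPTL4. The split among SM post-treatment libraries was not simulated, so these counts do not measure how well smaller changes of the members would be found. Same-animal libraries, paired by the animal numbers in the labels, correlated after removal of group means (median r 0.35 over 25 AT pairs, -0.04 for other animals; 0.28 over 19 SM pairs).

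The members, lists and tests were chosen with earlier results of these data known. All members were described; from each pathway list up to 3 called genes with the largest change and a mean of at least 1 CPM were named. Alternatives were limma 3.58.1 with sample weights, DESeq2 1.42.0, other scaling, filter, model and libraries, and, added after the data were seen, edgeR's earlier method. Exact permutation tests used NumPy 2.4.6. Sequences and genome positions of the members were not used here. Some genes of the lists, which are included in the counts over all lists, are not reported here.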

Additional observations from a re-analysis of the deposited data

Results flagged for a closer look

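In groups of 4 to 10 libraries, a library was marked where its gap to the nearest other value on the log2 scale took an unusually large share of the group's range (Dixon's test, 95% level). Of 42 combinations of member, tissue and time point, 4 were marked, and chance alone marks about 1 in 20, or 2.1 here. All 4 were in SM. FABP4 was 481 CPM in the pre-treatment library of animal 24849, against 33.1 to 71.4 CPM in the other libraries, and 826 CPM in its post-treatment library, against 39.7 to 152 CPM. VLDLR was 58.3 CPM in the pre-treatment library of animal 20275, against 77.4 to 90.5 CPM in the others, and 50.4 CPM in the washout library of animal 22130, against 99.3 to 148 CPM. The adipocyte markers of the libraries of animal 24849 are given above, and their part in these values was not tested.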

How the results depend on the processing

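The number of AT members called post-treatment, 1, became 0 without the pre-treatment library of animal 20275 and ranged from 0 to 1 without 1 animal. For washout against post-treatment it went from 1 to 2 with limma, DESeq2 or library size alone (1 to 3 without 1 animal), and for washout against pre-treatment from 0 to 3 with limma and 1 with DESeq2 or the number series (0 to 1 without 1 animal). With the number series 1 member was called in SM at washout against post-treatment, and 1 and 2 for the AT minus SM difference of the washout changes (0 to 1 without 1 animal for each). Some differences near 0 turned sign. Post-treatment in AT, VLDLR was -0.0096 with DESeq2, -0.024 with only the 2 time points and -0.087 to 0.11 without 1 animal, and GPIHBP1 -0.063 to 0.26. Post-treatment in SM, limma gave 0.029 for GPIHBP1, -0.40 for ANGPTL8 and 0.12 for VLDLR, DESeq2 -0.024 for ANGPTL8, and fits without 1 animal -0.32 to 0.66 for ANGPTL8 and -0.36 to 0.13 for VLDLR. CD36 in SM at washout against post-treatment was 0.0025 with DESeq2, 0.0046 with only the 2 time points, 0.47 with the number series and -0.24 to 0.22 without 1 animal. At washout against pre-treatment in SM, LPL ranged from -0.22 to 0.19 and FABP4 from -0.61 to 0.075 without 1 animal. With no replicate block for the animal, LPL in AT post-treatment was -0.71 (edgeR adjusted p = 0.047), VLDLR turned to -0.059 and LPL in SM at washout against pre-treatment to 0.20, and dropping the block changed no member's call. The causes of these shifts were not tested. Over all genes, the 2068 called in AT post-treatment became 1162 without the pre-treatment library of animal 20275 and 805 without animal 22130. The 24 called in SM at washout against post-treatment ranged from 2 to 2650 over other settings with all animals, and the 8 at washout against pre-treatment from 3 to 1355. Without animal 19832 both became 0, and without animal 20275 the first became 0. The 6 and 2157 for the AT minus SM difference post-treatment and at washout against pre-treatment reached 75 (DESeq2) and 3833 (number series). Scaling by library size alone moved the split of higher and lower calls from 2352 and 2379 to 2979 and 1750 in AT at washout against post-treatment, from 1671 and 1064 to 2313 and 590 against pre-treatment, and from 5669 and 4786 to 8313 and 2364 between tissues.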
